A study of Mus musculus with 6 samples.

Results

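Markers of the neuron and oligodendrocyte lineages were followed in primary mouse astrocyte cultures. The set was a list of 33 genes, 15 of the oligodendrocyte lineage and 18 of neurons, defined by gene name, with no threshold on their values. All 33 had exactly 1 probe set carrying a single gene symbol, out of 19926 genes with such a probe set. The arrays were Affymetrix Mouse Gene 1.0 ST, a 1-colour platform that reads many probes along each transcript. The first group was 3 samples treated for 24 h with 50 ng/mL TNF, the inflammatory cytokine tumour necrosis factor, and the second was 3 control samples, also labelled 24 h. Both groups came from strain C57BL/6J, with no genotype and no agent other than TNF named, and were numbered 1 to 3 in each group. The labels give no purity for the cultures and do not say whether replicates were separate cultures or animals. The p-values therefore reflect only how far these 6 samples scatter, which can be technical.

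Oligodendrocytes wrap axons in myelin and arise from dividing precursors that carry the receptor Pdgfra and the proteoglycan NG2. Precursors commit, switch on the myelin regulator Myrf and then produce myelin lipids and proteins. Neurons are recognised by microtubule and neurofilament proteins, by RNA-binding proteins of the Elavl and Rbfox families, by the vesicle machinery of synapses, and by the enzymes and transporters that set their transmitter. Astrocytes share a progenitor with both lineages, and cultures of astrocytes can hold cells of either. Several of these markers are not exclusive: Pdgfra is also found on fibroblasts, and Cspg4, which encodes NG2, on pericytes.

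Most of these markers read near their control signal with TNF, with 2 large exceptions. Cmtm5, a membrane protein of the MARVEL family found in myelin, fell 5.71-fold, and Map2, the microtubule-associated protein of dendrites, fell 2.33-fold. These 2 were the only members that passed the test without pairing of samples, and 0 members passed as higher. The other 31 differed by -0.39 to 0.55 on the log2 scale. With samples paired by replicate number 5 members passed, 4 lower and 1 higher, which was 15.2% of the members against 21.5% of all genes. Of the 33 members, 14 were about as dim as genes not expected in astrocytes, so a fall in them could hardly be seen. Cmtm5 and Map2 were among the 7 members with a mean signal at or above the median over all genes. Which cells gave the Cmtm5 and Map2 signals was not tested. The test was limma across all 19926 genes, and the threshold an adjusted p (Benjamini-Hochberg) of 0.05 over all of them. At an unadjusted p under 0.05, 3 members were lower and 2 higher, against 9.73% and 9.15% of all genes.

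The members' count was no larger than that of genes at large. Of the members 6.06% were called, against 7.20% of all genes tested, 3.33% lower and 3.87% higher. Differences are TNF minus control, in log2 units of array signal, and array signals compress large folds. The median difference was -0.014 over the oligodendrocyte lineage markers and -0.07 over the neuronal markers, beside -0.0033 over all genes. Neither median had a settled sign: omitting 1 array gave -0.11 to 0.055 for the first and -0.21 to 0.033 for the second. Without genes under the median signal, which left only 7 members in both groups together, the medians were -0.25 and -0.34. In whole cultures, fewer cells of a type and less transcript per cell cannot be told apart.

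The sequence just before the transcription start is shown for the 2 genes that fell and for Gad1, which encodes an enzyme of GABA synthesis and was the only member called higher when samples were paired. Each is the 250 bases before the first start listed, from RefSeq on build GRCm38.p6, plus strand, 5′ to 3′, and 25 of the 33 members had an entry. Capitals mark matches to GGGCGG, the GC box, on either strand.
Cmtm5, chr14:54936220-54936469: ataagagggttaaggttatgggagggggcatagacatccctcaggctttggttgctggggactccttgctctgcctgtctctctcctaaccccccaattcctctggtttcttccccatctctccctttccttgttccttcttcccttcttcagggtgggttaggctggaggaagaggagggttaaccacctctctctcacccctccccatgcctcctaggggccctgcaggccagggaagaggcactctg
Map2, chr1:66175079-66175328: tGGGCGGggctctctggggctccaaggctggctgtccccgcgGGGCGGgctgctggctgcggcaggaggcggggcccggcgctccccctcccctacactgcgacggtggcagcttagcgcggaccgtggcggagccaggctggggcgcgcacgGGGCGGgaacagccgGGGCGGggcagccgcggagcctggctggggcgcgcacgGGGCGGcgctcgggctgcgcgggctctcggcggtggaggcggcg
Gad1, chr2:70561879-70562128: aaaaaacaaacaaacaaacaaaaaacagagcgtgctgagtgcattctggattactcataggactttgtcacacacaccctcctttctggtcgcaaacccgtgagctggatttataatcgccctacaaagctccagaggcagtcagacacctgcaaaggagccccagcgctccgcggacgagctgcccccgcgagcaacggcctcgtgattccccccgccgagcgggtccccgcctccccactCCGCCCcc

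The Map2 stretch held 5 GC boxes and was 81.2% G or C, the Gad1 stretch held 1 and was 58.0% G or C, and the Cmtm5 stretch held 0 and was 56.8% G or C. The GC box was present in 33.0% of all 32536 such stretches, whose median G and C content was 52.4%. None of these 3 stretches held the E-box CAGCTG, which was present in 13.1% of all stretches. These are matches of letters within 250 bases and say nothing of binding.

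Of the 33 members 7 had a mean signal at or above the median over all genes, 7.63. As a guide to signal without transcript, the 1205 probe sets of olfactory and vomeronasal receptor genes, which are not expected in astrocytes, had a median mean signal of 4.78 and a 95th percentile of 6.35. Of the oligodendrocyte lineage markers 11 of 15 had a mean above that percentile, and of the neuronal markers 8 of 18, so 57.6% of the members lay above it, against 71.4% of all genes. Probe sets differ in how brightly they bind, so this is a guide and not a detection call. All 12 measured astrocyte markers lay above the same percentile, among them the glutamate transporter Slc1a3 at 12.44 ± 0.24 with TNF and 12.72 ± 0.07 in controls (mean ± SD, n = 3 each). So did 7 of 8 fibroblast and mural markers and 29 of 34 other neuronal genes, so the percentile does not single out astrocytes.

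**Figure D1:**
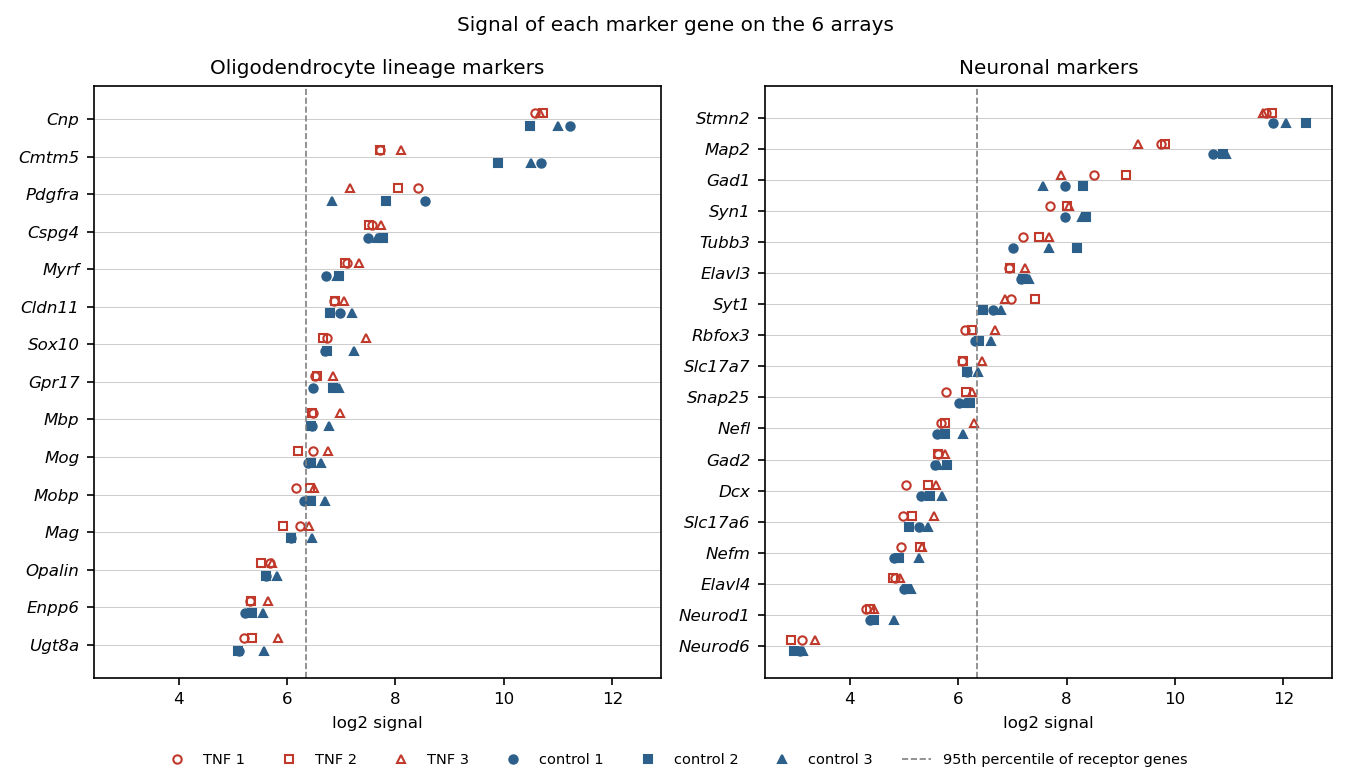
Log2 signal (horizontal axis) of each of the 33 marker genes on the 3 TNF arrays (open red) and the 3 control arrays (filled blue), with circles, squares and triangles for replicates 1, 2 and 3. The dashed line is the 95th percentile of olfactory and vomeronasal receptor genes, at 6.35. Cmtm5 and Map2 are the genes whose red and blue points stand far apart. Signals of different genes are not comparable, since each has its own probes.

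Among precursor markers, the receptor Pdgfra had the widest spread between replicates and hardly any shift with TNF. Its signal was 8.42, 8.05 and 7.16 in TNF cultures 1 to 3, against 8.55, 7.82 and 6.83 in the controls with the same numbers. Replicate 1 was high and replicate 3 low in both groups, and the groups overlapped. The difference of 0.14 (SE 0.46, limma adjusted p = 0.963) was small beside a range of 1.26 among the TNF cultures and of 1.72 among the controls.

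Cspg4, the NG2 proteoglycan, was steadier. It read 7.56, 7.51 and 7.74 in TNF cultures and 7.49, 7.76 and 7.66 in controls. The groups overlapped, with a difference of -0.04 (SE 0.12, adjusted p = 0.966, limma). Sox10, the transcription factor kept through the whole lineage, read 6.73, 6.67 and 7.46 with TNF, against 6.70, 6.73 and 7.23 in controls, so replicate 3 was the highest in both groups. Its difference was 0.07 (95% interval -0.49 to 0.63).

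Markers of committed precursors did not pass the test. Gpr17, a receptor of cells that have left division, averaged 6.64 ± 0.19 with TNF and 6.76 ± 0.25 in controls (SD, n = 3 each). Enpp6, a choline phosphodiesterase of newly forming oligodendrocytes, averaged 5.43 ± 0.19 and 5.38 ± 0.17 in the TNF and control cultures, below the receptor-gene percentile.

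Myrf, the transcription factor that switches on myelin genes, had groups that did not overlap. It read 7.10, 7.06 and 7.32 with TNF, against 6.73, 6.97 and 6.92 in controls. All 3 TNF values lay above all 3 control values, but the difference of 0.29 (SE 0.12) did not pass (limma adjusted p = 0.264, and 0.0648 with the replicate number as a block). Ugt8a, the galactosyltransferase that makes myelin galactolipids, differed by 0.20 (adjusted p = 0.75) from a low signal of 5.47 ± 0.33 with TNF and 5.26 ± 0.27 in controls.

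Of the 8 genes listed as myelin proteins only Cmtm5 passed. Its signal was 7.71, 7.72 and 8.11 in TNF cultures 1 to 3 and 10.68, 9.88 and 10.51 in the controls. Every TNF value lay below every control value, with a gap far wider than the range of 0.40 within the TNF cultures or of 0.79 within the controls. The means were 7.84 ± 0.23 with TNF and 10.36 ± 0.42 in controls, a log2 difference of -2.51 with an SE of 0.22 (limma adjusted p = 0.000542, 3 arrays in each group). Across all genes only 2 had a more negative difference. The call held in each of the 6 fits without 1 array, with adjusted p from 0.00054 to 0.00357.

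None of the other 7 myelin proteins passed. The mean signals of Mag (6.19) and Opalin (5.66) lay below the receptor-gene percentile and those of Mobp (6.42), Mog (6.48) and Mbp (6.60) close to it, so a fall in these 5 could hardly be seen. Cnp, the cyclic nucleotide phosphodiesterase of non-compact myelin, read 10.57, 10.72 and 10.67 with TNF, against 11.22, 10.48 and 11.00 in controls. The TNF cultures lay close together inside the spread of the controls, and the difference of -0.25 (SE 0.19) did not pass (limma adjusted p = 0.618). It was negative in pairs 1 and 3, at -0.65 and -0.33, and positive in pair 2, at 0.24.

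The classical myelin proteins Mbp, Mog and Mag had small differences. Mbp, myelin basic protein of compact myelin, averaged 6.64 ± 0.29 with TNF and 6.56 ± 0.19 in controls (SD, n = 3 each). Mog, the glycoprotein of the outer myelin surface, averaged 6.48 ± 0.28 with TNF and 6.48 ± 0.12 in controls. Mag, the adhesion glycoprotein of the membrane facing the axon, averaged 6.18 ± 0.24 and 6.20 ± 0.22 in the TNF and control cultures. For these 3 the 95% intervals of the difference together ran from -0.40 to 0.48.

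Mobp, Opalin and Cldn11 completed the group. Mobp, a small basic protein of compact myelin, differed by -0.12, Opalin, a membrane glycoprotein of oligodendrocytes, by -0.04, and Cldn11, the claudin of myelin tight junctions, by -0.05, with limma adjusted p from 0.834 to 0.964. The groups overlapped in all 3.

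**Figure D2:**
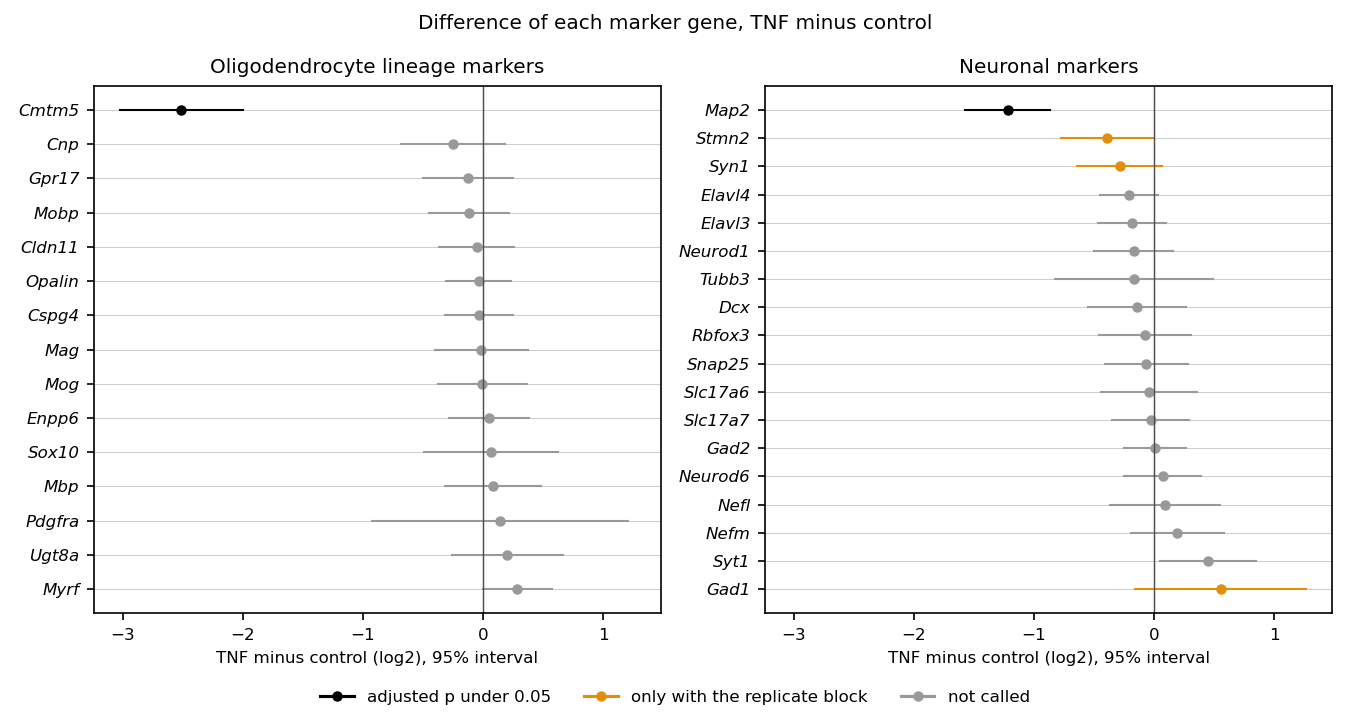
Log2 difference, TNF minus control, with its 95% interval from limma (horizontal axis), for each marker gene. Black marks an adjusted p under 0.05, orange a call made only with the replicate number as a block, and grey no call. Cmtm5 at -2.51 and Map2 at -1.22 stand to the left of all other members.

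Among neuronal genes, Map2 fell in every pair. It read 9.74, 9.81 and 9.32 in TNF cultures and 10.71, 10.88 and 10.94 in controls. The groups were separated by more than the range within either. The means were 9.62 ± 0.26 with TNF and 10.84 ± 0.12 in controls, a difference of -1.22 with an SE of 0.15 (limma adjusted p = 0.00349, 3 arrays in each group). Leaving out any 1 array kept the call (adjusted p up to 0.0172, reached when control 2 was omitted), which was lost when both arrays of replicate 1 were omitted (difference -1.34, adjusted p = 0.0519).

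Of the other microtubule genes, Stmn2, the tubulin-binding stathmin of growing axons, gave 11.68, 11.79 and 11.63 with TNF, against 11.80, 12.42 and 12.05 in controls. Its TNF values all lay below its control values, with pair differences of -0.13, -0.63 and -0.42. The difference of -0.39 (SE 0.16) did not pass (limma adjusted p = 0.25) and was called lower with the replicate block (adjusted p = 0.0398). Tubb3, the neuronal beta-tubulin, read 7.20, 7.50 and 7.68 with TNF and 7.01, 8.20 and 7.67 in controls, overlapping throughout, with a difference of -0.17 (SE 0.28, adjusted p = 0.9). Dcx, doublecortin of migrating young neurons, averaged 5.36 ± 0.29 with TNF and 5.50 ± 0.20 in controls, below the receptor-gene percentile.

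The RNA-binding proteins had small negative differences, and none passed. Elavl3 read 6.93, 6.95 and 7.23 with TNF, against 7.16, 7.19 and 7.32 in controls, a difference of -0.19 (SE 0.12, limma adjusted p = 0.531) with overlapping groups. Elavl4, its relative, differed by -0.21 (limma adjusted p = 0.346) with groups that did not overlap. The Elavl4 signal was 4.85 ± 0.07 with TNF and 5.06 ± 0.06 in controls, below the receptor-gene percentile. Rbfox3, the NeuN antigen of mature neurons, differed by -0.08 (adjusted p = 0.931).

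None of the 3 genes of the synaptic vesicle passed without the replicate block, and their differences were not of 1 sign. Syn1, synapsin I, read 7.69, 8.02 and 8.04 with TNF, against 7.97, 8.36 and 8.28 in controls. The groups overlapped, yet each TNF culture lay 0.23 to 0.35 below the control of its own number. Its difference of -0.29 (SE 0.15) did not pass (limma adjusted p = 0.397) and was called lower with the replicate block (adjusted p = 0.0387).

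Syt1, the calcium sensor of vesicle release, had a positive difference, of 0.32, 0.97 and 0.07 in pairs 1 to 3. It read 6.97, 7.42 and 6.87 with TNF and 6.65, 6.45 and 6.80 in controls. All TNF values lay above all controls, and TNF culture 2 was the highest. The difference of 0.45 (SE 0.17) did not pass (limma adjusted p = 0.199, and 0.0924 with the block), and it was called higher only with array weights (adjusted p = 0.0487). Snap25, the membrane partner of the release machinery, differed by -0.06 at a mean signal of 6.09, below the receptor-gene percentile.

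Gad1 was the transmitter gene with the largest difference. Its signal was 8.50, 9.09 and 7.90 in TNF cultures and 7.97, 8.31 and 7.56 in controls. The groups overlapped because replicate 2 was high and replicate 3 low in both, while each TNF culture exceeded its own control, by 0.53, 0.78 and 0.35. The difference of 0.55 (SE 0.31) did not pass (limma adjusted p = 0.423) and was called higher with the replicate block (SE 0.10, adjusted p = 0.00792). Without TNF 2 the difference was 0.26, without control 3 it was 0.36 and without TNF 3 it was 0.85. Gad2, the other glutamate decarboxylase, averaged 5.67 ± 0.08 with TNF and 5.67 ± 0.11 in controls (SD, n = 3 each), below the receptor-gene percentile.

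The vesicular glutamate transporters Slc17a6 and Slc17a7 differed by -0.04 and -0.03. The neurofilament genes Nefl and Nefm differed by 0.09 and 0.19, and the neurogenic transcription factors Neurod1 and Neurod6 by -0.17 and 0.07. All 6 had means below the receptor-gene percentile. Neurod6 read 3.13 ± 0.23 with TNF and 3.06 ± 0.08 in controls (SD, n = 3 each). None of these genes passed, with limma adjusted p from 0.665 to 0.98.

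With the replicate number as a block, 4 members were lower and 1 higher, against 11.8% and 9.73% of all genes. That was 15.2% of the members called in either direction, beside 21.5% of all genes. The pairing rests on the values, since cultures of the same number departed together from their group means, at correlations of 0.55, 0.65 and 0.75. Groups did not overlap for 6 members, 18.2%, against 24.0% of all genes. They were Cmtm5, Map2, Stmn2 and Elavl4 below, and Myrf and Syt1 above, that is 4 and 2 members against 11.7% and 12.3% of all genes. In all 3 pairs 9 members were lower and 7 higher, against 26.9% and 25.7% of all genes. Single arrays moved the smaller differences by over 1.5 times: without control 2 those of Stmn2 and Syn1 were -0.23 and -0.17, and without TNF 2 that of Syt1 was 0.28.

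**Figure D3:**
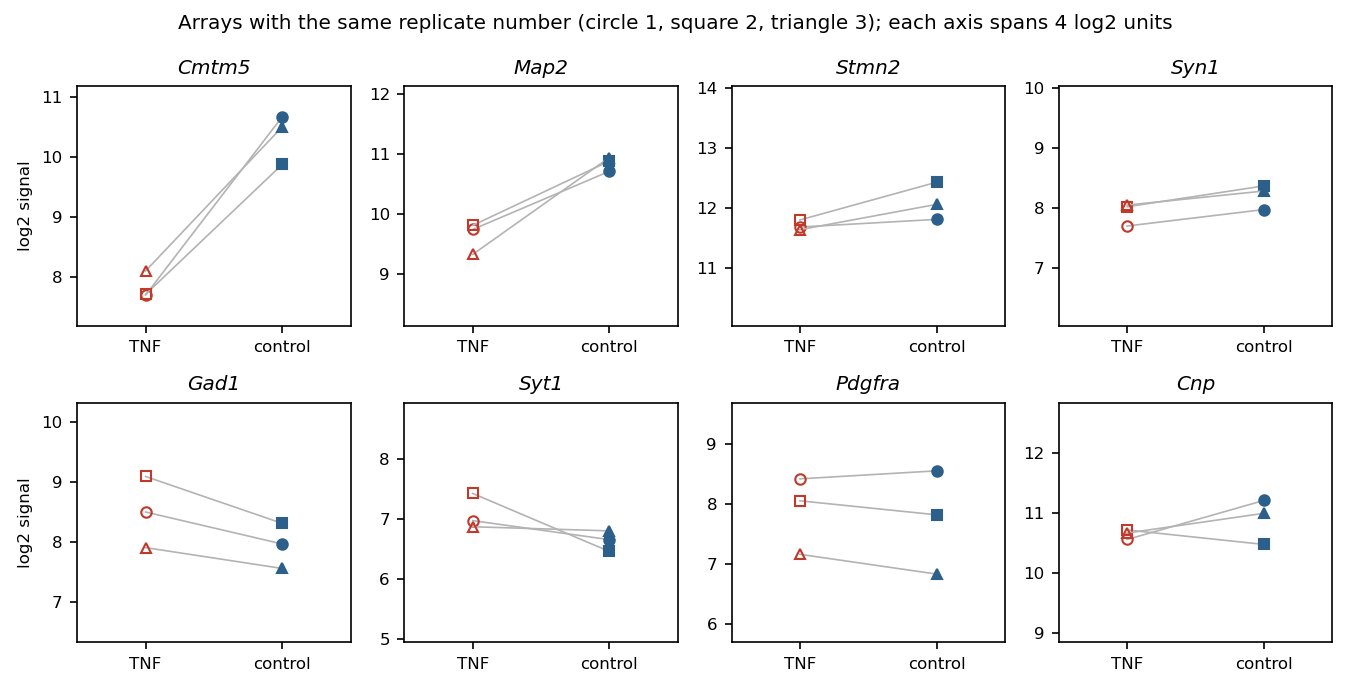
Log2 signal (vertical axis, 4 units in each panel) of the 5 members called in either fit, of Syt1, and of the oligodendrocyte lineage markers Pdgfra and Cnp, in TNF and control cultures. Grey lines join cultures with the same replicate number (circle 1, square 2, triangle 3). All lines slope the same way for Cmtm5, Map2, Stmn2, Syn1, Gad1 and Syt1, while for Pdgfra and Cnp 1 line runs against the other 2.

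The data set limits on what could be missed. Of the 31 members not called, 29 had a 95% interval of the difference within -1 to 1, and 18 within -0.5 to 0.5. The exceptions to the wider bound were Pdgfra, from -0.92 to 1.21, and Gad1, from -0.16 to 1.27. These intervals are for single genes, from the fit without a block, and bound the array signal. For the 14 members below the receptor-gene percentile, all among the 31, they do not bound a change in transcript. The same limit holds for Rbfox3 (6.39), Mobp (6.42), Mog (6.48) and Mbp (6.60), whose mean signals lay close above that percentile.

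Replicate 3 was the highest culture in both groups for 20 members, 60.6%, against 31.0% of all genes. Among the 14 members below the receptor-gene percentile it was so for 12, and 50.7% of all genes below that percentile did the same. The receptor genes themselves had medians of 4.89 and 4.81 on the TNF and control arrays of replicate 3, against 4.70 to 4.77 on the other 4. Whether this array shift accounts for the higher readings of replicate 3 was not tested.

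Other genes of the oligodendrocyte lineage, from a list of 35 of which 32 were measured, fell in 7 cases and rose in 0, beside 3.33% lower and 3.87% higher among all genes. The 7 were bright, with mean signals of 8.60 to 11.04, while 9 of the 32 lay below the receptor-gene percentile. Which cells gave these signals was not tested. At an unadjusted p under 0.05, limma gave 2 higher and 11 lower. The median difference of the list, -0.16, stands beside -0.0033 over all genes. Car2, carbonic anhydrase 2, averaged 7.85 ± 0.32 with TNF and 9.34 ± 0.13 in controls (SD, n = 3 each), a difference of -1.50 (limma adjusted p = 0.0022). Olig1 and Olig2, the transcription factors that specify the lineage, fell by 1.21 and 0.60 on the log2 scale.

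Lims2, an adaptor of focal adhesions, fell by 1.20, Plekhb1, a pleckstrin homology protein, by 0.63, and Tcf7l2, a transcription factor of Wnt signalling, by 0.83 on the log2 scale. The seventh was C1ql1, a secreted C1q-like protein of precursors, at -1.36, named after its value was seen. Car2, Lims2 and Olig1 kept the call whichever array was omitted (adjusted p up to 0.0303). Olig2 lost it in 5, and Plekhb1 and Tcf7l2 in 4 each. The counts of lower genes were 12 with the replicate block and 4 without TNF 1, TNF 2, control 1 or control 3. Without both arrays of replicate 1, 2 or 3 they were 1, 3 and 3. With the block 2 were higher, and over all genes the block called 9.73% higher and 11.8% lower.

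Other neuronal genes, 34 measured of 40 listed, moved both ways, with 2 higher and 3 lower, beside 3.87% and 3.33% of all genes, and a median difference of -0.13. At an unadjusted p under 0.05, 3 were higher and 7 lower. Syp, the vesicle protein synaptophysin, fell by 0.62 on the log2 scale (limma adjusted p = 0.0132), Mapt, the microtubule protein tau, by 0.64 and Grin2b, a subunit of NMDA receptors, by 1.09. Gap43, a protein of growth cones, rose by 0.61 and Eno2, neuron-specific enolase, by 0.71. Rtn1, a reticulon of the endoplasmic reticulum, differed by -0.51 and did not pass (adjusted p = 0.0559). It was called lower with the replicate block (adjusted p = 0.00449), with array weights (0.0208), with trend and robust variance (0.0176), with quantile normalization (0.0473) and without genes under the median signal (0.0266).

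Each of these 5 calls was lost in at least 2 of the 6 fits with an array omitted. Without TNF 2 the counts were 0 higher and 0 lower, without control 1 they were 0 and 1, and without control 2 they were 0 and 3. Without TNF 1 or control 3 they were 1 and 2, and without TNF 3 they were 1 and 3. With the replicate block 4 were higher and 10 lower, beside 9.73% and 11.8% of all genes.

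**Figure D4:**
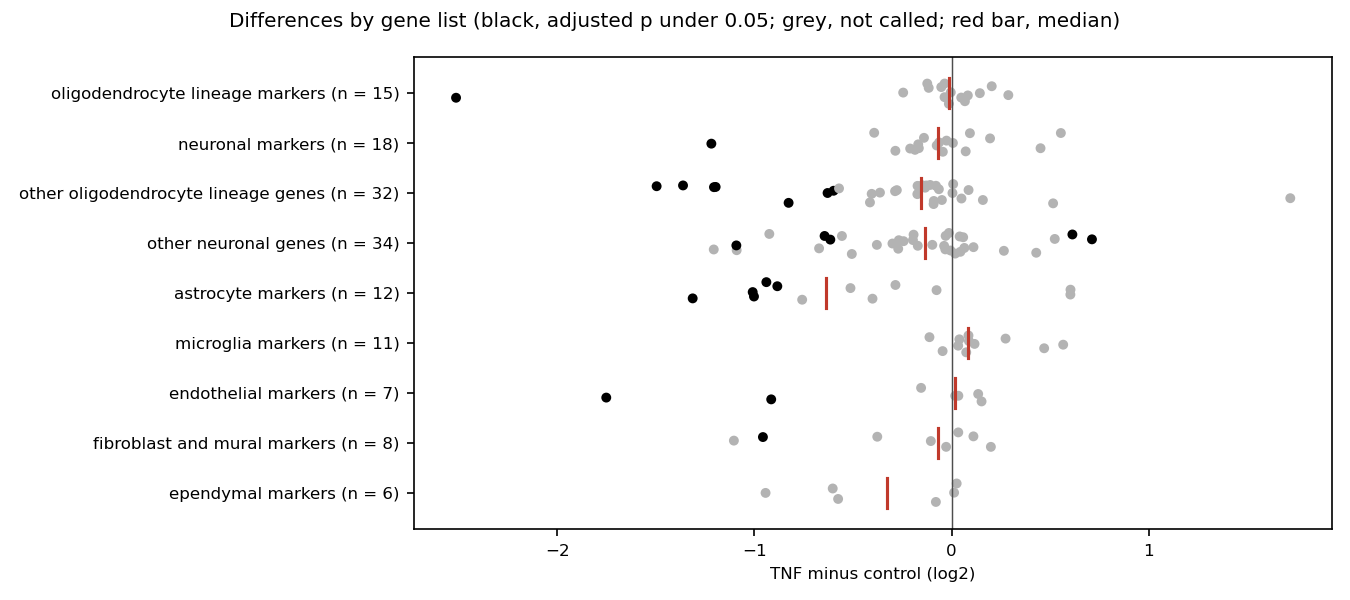
Log2 difference, TNF minus control (horizontal axis), of each gene in the 2 marker groups and in the lists of related genes and of other cell types. Black points passed at an adjusted p under 0.05, grey points did not, and red bars are list medians. The marker groups centre near 0, and the astrocyte list has its median at -0.64.

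Markers of other cells were read beside these genes. Of the 12 astrocyte markers 5 fell and 0 rose (6 lower and 2 higher at an unadjusted p under 0.05), with list means of 10.53 to 10.76 in TNF cultures and 11.05 to 11.31 in controls. Among them Glul, glutamine synthetase, was 1.85-fold lower and Aldoc, aldolase C, 2.01-fold lower, while Aqp4, the water channel, differed by 0.60 and did not pass (limma adjusted p = 0.0718, and 0.0069 with the replicate block). With the block 8 astrocyte markers were lower and 2 higher, beside 11.8% and 9.73% of all genes. The 2 were Aqp4 and the glutamate transporter Slc1a2. The part of the astrocyte markers' shift in the decreases of Cmtm5 and Map2 was not tested.

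Microglia markers passed in 0 of 11 (1 higher and 0 lower at an unadjusted p under 0.05, limma), with list means of 6.59 to 7.56 with TNF and 6.50 to 7.50 in controls, and Cd68, a lysosomal protein of macrophages, averaged 8.88 ± 0.10 with TNF and 8.31 ± 0.47 in controls (SD, n = 3 each). With the replicate block 2 microglia markers were higher, and over all genes the block called 9.73% higher and 11.8% lower. Of 7 endothelial markers 2 fell, the transporter Slco1a4 at -1.75 and the receptor Kdr at -0.92. The other endothelial markers did not pass, 4 of the 7 differences were positive, and the list median was 0.018. List means, which include Slco1a4 and Kdr, were 6.69 to 7.13 and 7.11 to 7.40 in the TNF and control cultures. Of the endothelial markers that did not pass, 2 lay below the receptor-gene percentile. Of 8 fibroblast and mural markers 1 fell in the fit without a block, smooth muscle actin Acta2 at -0.96. With the block 3 were lower, adding the actin-binding protein Tagln at -1.10 (adjusted p = 0.0649 without the block and 0.00293 with it) and the receptor Pdgfrb at -0.38 (0.29 and 0.0146). List means were 8.04 to 8.73 with TNF and 8.43 to 8.95 in controls. Of 6 ependymal markers 0 passed (0 higher and 1 lower at an unadjusted p under 0.05, limma), with list means of 7.45 to 7.78 with TNF and 7.50 to 8.37 in controls. With the block 3 were lower, Rsph1 (adjusted p = 0.00305), Dynlrb2 (0.014) and Ak7 (0.0171). Their part in the members' differences was not tested.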

How the data were processed

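The authors deposited 1 table of log2 signals for 35544 probe sets on 6 arrays, and RMA, a background correction, quantile normalization and probe set summary, is named with limma per the submitters' processing notes. Versions and genome build: not given in the sources used here. Values spanned 2.04 to 14.37, from which the log base was inferred. Detection calls, and list genes without a probe set of their own, were not analysed here. Probe sets with exactly 1 symbol in the platform annotation (21777) were kept, and the one with the highest mean was taken per gene, leaving 19926 genes.

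Sample titles gave the groups and numbers. Genes were tested two-sided with lmFit and eBayes of limma 3.58.1 (R 4.3.3), TNF minus control, without a block, with 4 residual and 3.7 prior degrees of freedom. Replicate numbers 1 to 3 pair the samples by the values, at correlations of 0.55, 0.65 and 0.75, so the blocked value is given where it changes a member's call or a list's count. The fit was tested on simulated data. Python 3.11.15, pandas 2.3.3, numpy 2.4.6, scipy 1.17.1 and matplotlib 3.10.9 made summaries and plots. The number of arrays limits precision. The members and lists were chosen with earlier results of these data known. Members called in either fit, and the 3 brightest others of each group, are given array by array; other members are given by their values where these describe a group. Of related lists, the 6 genes with the smallest p are named, and of other cell types up to 4 by brightness. Alternatives were the block, array weights, trend and robust variance, centring, quantile normalization, a filter on dim genes, other probe sets, arrays left out and stricter thresholds.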

Additional observations from a re-analysis of the deposited data

How the results depend on the processing

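Of 601 values of single members under the alternatives, 596 kept their direction, where called, and their side of the threshold. Some of these could not change. Each member had 1 probe set, so the choice of probe set left its difference as it was. Stricter thresholds could not call a member that had not passed, and a change of sign in an uncalled member counted as kept. Cmtm5 was lower in every fit. With the replicate block 1 member was higher and 4 lower, with array weights 1 was higher, and without both arrays of replicate 1 only 1 was lower, since Map2 missed the threshold. The replicate block changed no other member's call than those of Stmn2, Syn1 and Gad1. Without any 1 array the members' counts were 0 higher and 2 lower. Over all genes, 1938 were higher and 2351 lower with the replicate block, 386 and 195 at an adjusted p under 0.01, and 365 and 200 when the log2 difference also had to reach 1 in size. Leaving out both arrays of replicate 1, 2 or 3 gave 284, 273 and 401 higher and 106, 134 and 231 lower, from fits with fewer samples. Without 1 array, 465 to 669 were higher and 315 to 455 lower.

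The median difference of the oligodendrocyte lineage members ran from -0.11 to 0.055 without 1 array and was 0.075 without both arrays of replicate 2. That of the neuronal members ran from -0.21 to 0.033 without 1 array. Without genes under the median signal, which left 7 members, the medians were -0.25 and -0.34. Signal close to that of receptor genes limits what the 14 members below their percentile, and those just above it, can show.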

Other observations

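Several genes of the related lists differed widely between replicate numbers and passed only when samples were paired. They are named after their values were seen. Apod, the lipid carrier apolipoprotein D, read 8.56, 10.46 and 10.08 in TNF cultures 1 to 3, against 7.21, 7.97 and 8.77 in controls. Its difference of 1.72 had a limma adjusted p of 0.116, and of 0.00158 with the replicate block.

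Thy1, a surface glycoprotein of neurons and fibroblasts, read 9.81, 11.08 and 10.37 with TNF, against 10.87, 11.89 and 11.27 in controls, with a difference of -0.92 (limma adjusted p = 0.199, and 0.00038 with the block). Reln, the secreted glycoprotein reelin, read 7.22, 7.50 and 6.92 with TNF and 8.53, 8.88 and 7.50 in controls, with a difference of -1.09 (adjusted p = 0.11, and 0.00257 with the block). Camk2a, a calcium-dependent kinase of excitatory synapses, read 7.86, 7.37 and 8.17 with TNF and 8.81, 8.34 and 9.86 in controls, with a difference of -1.21 (adjusted p = 0.115, and 0.00146 with the block). In each of the 4 genes the direction was the same in all 3 pairs, which choosing genes that passed when paired favours. Of all genes 26.9% were lower and 25.7% higher in all 3 pairs.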
